A study of Mus musculus with 4 samples.

Results

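The levels of 10 genes that set or hold the transcriptional identity of skeletal muscle were read on 4 arrays of mouse gastrocnemius muscle: the myogenic regulatory factors Myod1, Myog, Myf5 and Myf6, the satellite cell factor Pax7, the MEF2 factors Mef2a, Mef2c and Mef2d, and the inhibitors Id1 and Id3. They were chosen by symbol, as every probe set that the platform annotation gives to one of these 10 genes alone, which found 23 probe sets for 10 of the 18193 genes on the array. All 10 genes and 22 of the 23 probe sets passed the filter on dim signals, which 12565 genes of the series passed.

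The conditions were knockout muscle starved for 24 h, knockout muscle fed, control muscle starved for 24 h and control muscle fed, all from male mice of a cross of C57BL/6N and FVBN. Knockout mice carried floxed FoxO1, FoxO3 and FoxO4 alleles and a Cre transgene driven by the fast myosin light chain promoter MLC1f, and controls carried the floxed alleles (FoxO1,3,4 f/f) and are called wild type in the sample labels. That promoter is active in fast (type II) muscle fibres, while slow (type I) fibres keep their FoxO proteins, as the paper states. The other cells of the tissue, such as satellite cells and endothelium, are not its target either. The methods give adult mice for all experiments, and starved mice had water but no food. RNA from 6 muscles of 3 mice was pooled for each condition and each pool was read on 1 array, so there is no replicate, no test and no p-value, and the spread between mice was not measured.

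The myogenic regulatory factors are basic helix-loop-helix (bHLH) proteins that pair with E proteins, bind the E-box and switch on muscle genes. Myf5 and Myod1 commit cells to the muscle lineage, Myog drives their differentiation into fibres, and Myf6 (MRF4) is the member best known from mature fibres. Pax7 marks satellite cells, the stem cells that lie beside each fibre. MEF2 proteins are MADS-box factors that work with the myogenic factors on muscle promoters and are held back by class IIa histone deacetylases. Id1 and Id3 lack a basic region and take E proteins away from the myogenic factors, and their genes are known targets of BMP signalling through Smad1 and Smad5. FoxO factors are forkhead proteins that enter the nucleus when insulin signalling is low, as in fasting.

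The bases before the transcript starts of the members were searched for E-boxes, forkhead sites and the MEF2 consensus. These are known sites of the myogenic regulatory factors, the FoxO factors and the MEF2 factors, in that order. RefSeq (build GRCm38.p6) gave windows of 250 bases before a start for 7 of the 10 genes, 9 windows in all, and the table used has no entry for Myod1, Myf6 and Id1. The windows of Mef2c and Myog are shown because Mef2c is the member whose probe sets moved together on starvation, while Myog is the textbook promoter controlled by E-boxes in this family. Capitals mark the E-box, CANNTG, which reads the same on both strands. The first lies on the + strand at chr13:83503784-83504016, cut where the Mef2c gene begins in the annotation, and the second on the + strand at chr1:134289754-134290003.
Mef2c: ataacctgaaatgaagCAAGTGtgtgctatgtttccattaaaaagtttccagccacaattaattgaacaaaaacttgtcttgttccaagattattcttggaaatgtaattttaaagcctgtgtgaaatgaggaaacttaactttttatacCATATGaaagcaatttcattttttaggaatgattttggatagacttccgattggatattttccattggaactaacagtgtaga
Myog: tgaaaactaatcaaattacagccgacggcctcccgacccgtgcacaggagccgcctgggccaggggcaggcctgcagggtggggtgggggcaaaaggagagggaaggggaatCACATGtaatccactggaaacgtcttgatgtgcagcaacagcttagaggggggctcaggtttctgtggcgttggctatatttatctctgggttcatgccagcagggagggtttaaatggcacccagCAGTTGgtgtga

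The Mef2c window holds E-boxes CAAGTG and CATATG whose first bases lie at -234 and -100 from the transcript start, and the Myog window holds CACATG at -138 and CAGTTG at -12. Of the other 2 Mef2c windows, which precede starts further into the gene, 1 has an E-box (CAGATG, at -245). E-boxes were found in 3 of the 9 windows, against 66.2% of 32851 mouse windows of the same length. The forkhead motif GTAAACA, searched on both strands, was in 0 of the 9 windows, against 3.17% of all windows. The MEF2 consensus was searched as YTAWWWWTAR, where Y is C or T, W is A or T and R is A or G. This strict pattern was also in 0 of the 9 windows, against 2.92% of all windows. The Myog window holds ctatatttat, which departs from the pattern in its last base only, so the count does not show that MEF2 sites are absent. A match is a description of letters and not a bound site, and these windows say nothing of more distant elements.

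The signals are MAS 5.0 values, a linear brightness for each probe set that cannot be set against that of another probe set. A gene is said below to have risen or fallen when its ratio reached 1.5-fold or its inverse, the threshold that the methods give, and the brightest probe set of a gene on average (its representative) is the one meant unless another is named. A ratio was also read against the scatter between probe sets of the same gene, the only repeat measurement on these arrays. For starved over fed muscle, the SD of this scatter on the log2 scale was 0.16 in knockout and 0.17 in control muscle for genes in the brightest of 3 tiers of signal, 0.25 in knockout and 0.24 in control muscle for the middle tier, and 0.57 in both genotypes for the dimmest tier. For this scatter the brightest pair of probe sets of a gene was compared, and the dimmer of the pair set the tier. The value for bright genes thus covers only genes in which both probe sets of the pair are bright. The scatter leaves out all differences between pools of mice.

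The arrays matched their labelled tissue and, for Foxo1 and Foxo4, their labelled genotype. The 9 fibre markers, among them Ckm and Acta1, all passed the filter and summed to between 113202 and 121765 signal units on the 4 arrays. Foxo4, a FoxO gene best known from striated muscle, read 34.3 in starved and 31.3 in fed knockout muscle, against 291.3 in starved and 296.9 in fed control muscle. Foxo1 read 165.5 in starved and 185.2 in fed knockout muscle, against 554.4 in starved and 303.8 in fed control muscle. Foxo3 did not separate the genotypes, with 460.9 in starved and 297.3 in fed knockout muscle against 477.8 in starved and 250.1 in fed control muscle, and whether its probe sets lie in the deleted part was not analysed here. The median signal of all probe sets was 22.9 and 23.8 on the starved and fed knockout arrays and 26 and 26.3 on the starved and fed control arrays, so knockout signals were lower as a whole.

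On starvation, 2 of the 10 genes fell in knockout muscle (Mef2c and Pax7) and 1 rose (Myf6), where 9.45% of all genes were called down and 7.39% were called up. In control muscle 3 genes fell (Myod1, Mef2c and Pax7) and 2 rose (Myf6 and Id1), where 14.2% of all genes were called down and 9.23% were called up. The 10 genes had a median log2 response of 0.13 in knockout and 0.05 in control muscle, and all genes one of -0.06 in knockout and -0.11 in control muscle. The 10 genes did not share a direction. Pax7 passed the filter through its fed signals alone, so a fall was favoured by the filter, and without Pax7 the genes that fell were Mef2c in knockout muscle and Myod1 and Mef2c in control muscle.

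**Figure D1:**
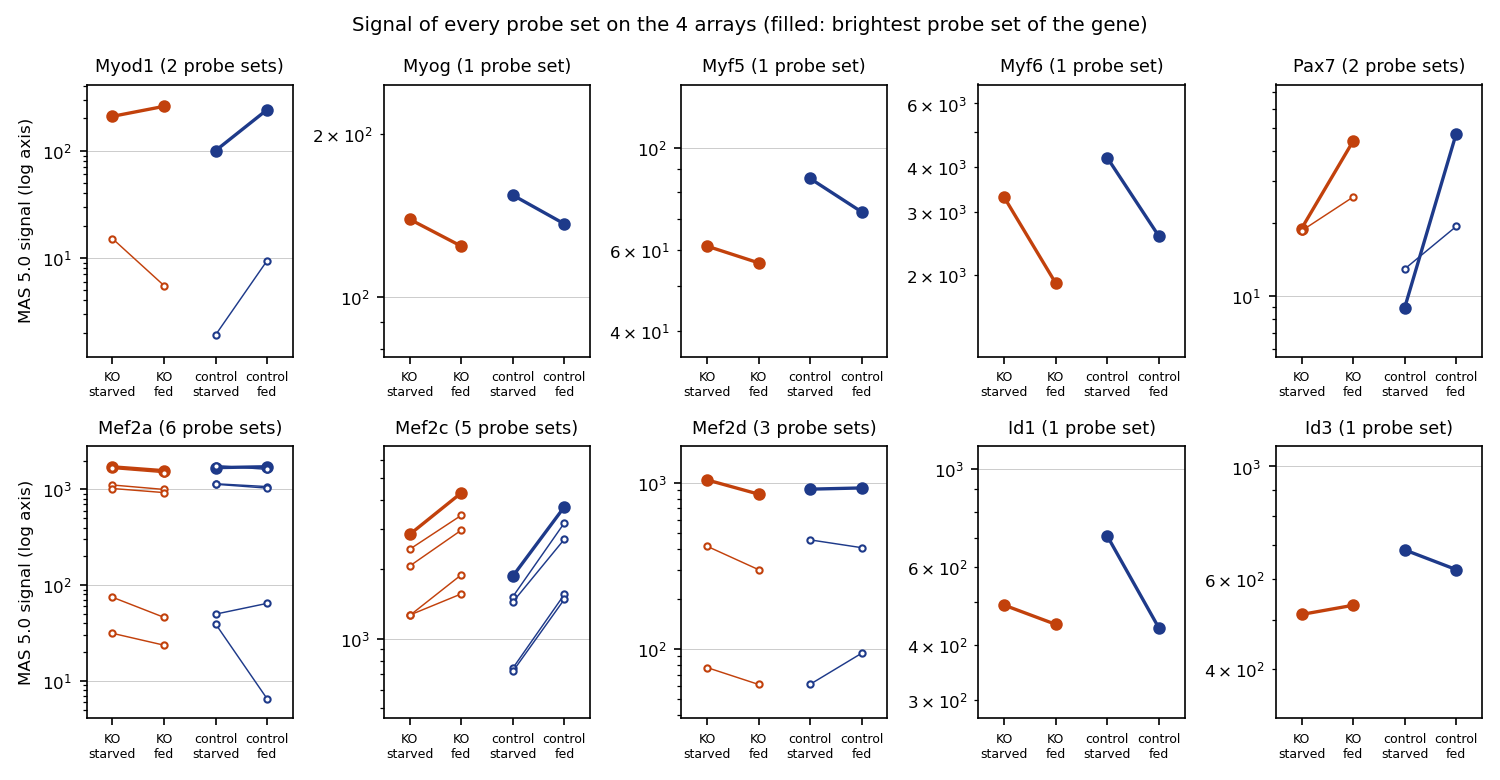
MAS 5.0 signal (log axis, with its own range in each panel) of all 23 probe sets of the 10 genes on the 4 arrays, with knockout muscle in orange and control muscle in blue. Filled points are the representative of the gene, and lines join the starved and fed arrays of a genotype; all 5 Mef2c probe sets are lower on the starved array of both genotypes.

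Myod1, which commits cells to the muscle lineage and in the adult is higher in fast than in slow muscle, gave the widest separation between the genotypes among the brighter members. Its signal was 209.4 in starved and 259.6 in fed knockout muscle, against 100.1 in starved and 241.6 in fed control muscle. The starved control array stood below the other 3, which lay within a narrow band. The ratio of starved to fed muscle was 0.807 in knockout and 0.414 in control muscle, log2 fold changes of -0.31 and -1.27 in that order of genotypes. Only 2.89% of all genes had a lower log2 fold change than Myod1 in control muscle, and 22.7% in knockout muscle. The difference between the genotypes in the log2 response was 0.96, where the scatter between probe sets of genes in the middle tier had an SD of 0.31, and 94.3% of all genes had a smaller value. The fed arrays differed by 0.10 on the log2 scale (knockout over control), less than the scatter of 0.21 for that comparison. A further Myod1 probe set, of the kind that can cross-hybridise, stayed below the filter on every array at 15.1 in starved and 5.5 in fed knockout muscle against 1.9 in starved and 9.4 in fed control muscle, so the Myod1 result rests on 1 measured probe set.

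Myf6, the member of the family best known from mature fibres, rose on starvation in both genotypes. Its signal was 3288.3 in starved and 1896.8 in fed knockout muscle, and 4234.9 in starved and 2564 in fed control muscle. Both starved arrays were above both fed arrays. The ratio was 1.73 in knockout and 1.65 in control muscle, and the log2 responses of 0.79 and 0.72 in that order of genotypes differed by 0.07, less than the scatter of 0.20 for bright genes. Among all genes, 95.2% had a lower log2 fold change than Myf6 in knockout muscle and 93.5% in control muscle. Knockout signals were 0.776 of control signals in starved and 0.740 of control signals in fed muscle, inside the threshold.

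Myog, which drives differentiation and is known to rise strongly when muscle loses its nerve, was nearly level over the 4 arrays. It read 139 in starved and 124 in fed knockout muscle, and 154 in starved and 136.3 in fed control muscle, and its highest signal was 1.24 times its lowest. Its log2 response was 0.16 in knockout and 0.18 in control muscle, both under the scatter for genes of its brightness. Myf5, the first myogenic factor of the embryo and a satellite cell gene in the adult, read 61.1 in starved and 56.2 in fed knockout muscle, and 85.7 in starved and 72.5 in fed control muscle. Both knockout arrays were below both control arrays for Myf5, at ratios of 0.713 in starved and 0.775 in fed muscle that did not reach the threshold. Myf5 and Myf6 are neighbours in the genome and share regulatory elements in the embryo, and on these arrays Myf6 rose on starvation where Myf5 had ratios of 1.09 in knockout and 1.18 in control muscle.

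Pax7 was dim, and its values are the least certain of the 10 genes. Its brighter probe set read 19 in starved and 43.9 in fed knockout muscle, and 8.9 in starved and 47.2 in fed control muscle. The starved arrays were below the fed arrays in both genotypes, and the probe set passed the filter through its fed signals alone. The ratios of 0.433 in knockout and 0.189 in control muscle were both past the threshold, which 17.4% and 21.5% of genes of the dimmest tier also passed downward in knockout and control muscle. The second Pax7 probe set read 18.6 in starved and 25.7 in fed knockout muscle and 12.9 in starved and 19.4 in fed control muscle. Its ratios were 0.724 in knockout and 0.665 in control muscle, the same direction with a much smaller size. This second probe set passed the filter through its fed knockout signal alone, so a fall in knockout muscle was favoured by the filter. Both its control signals were below the medians of their arrays. The genotypes differed in the log2 response by 1.20 on the first probe set and by 0.12 on the second, and the scatter between probe sets of such dim genes had an SD of 0.78 for this difference. In whole muscle, fewer satellite cells and less RNA in each cell cannot be told apart.

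The 3 MEF2 genes took different courses. Mef2c, which mouse skeletal muscle needs to keep its sarcomeres intact, was measured by 5 probe sets past the filter and was lower on all of them in starved muscle. Its representative read 2838.3 in starved and 4300.3 in fed knockout muscle, and 1868.2 in starved and 3741 in fed control muscle. The starved control array was lowest, the starved knockout array next, and the fed arrays were at the top, 0.20 apart on the log2 scale (knockout over control). The ratio of starved to fed muscle was 0.660 in knockout muscle, just past the threshold, and 0.499 in control muscle.

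All 5 Mef2c probe sets gave this order of the 4 arrays. Their ratios on starvation ran from 0.660 to 0.809 in knockout muscle, where 2 of 5 fell past the threshold, and from 0.477 to 0.533 in control muscle, where 5 of 5 did. The mean log2 response over the probe sets was -0.50 ± 0.12 in knockout and -1.02 ± 0.07 in control muscle (SD over 5 probe sets of the same 4 pools, which are no replicates; 3 of them were designed on 1 source sequence). The difference between genotypes was 0.52 ± 0.14 over the probe sets and positive in 5 of 5. The scatter between probe sets of bright genes was 0.20 for this difference. On the representative, 4.80% of all genes had a lower response than Mef2c in control muscle and 9.07% in knockout muscle.

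Mef2a, the MEF2 gene that is active in most tissues, was level. Its representative read 1722.9 in starved and 1570.5 in fed knockout muscle, and 1688.5 in starved and 1727.2 in fed control muscle, a highest to lowest ratio of 1.10. The 3 next brightest probe sets had ratios on starvation between 1.10 and 1.11 in knockout and between 1.07 and 1.10 in control muscle. The 2 dim Mef2a probe sets departed from these in opposite ways. The first read 74.8 in starved and 46.1 in fed knockout muscle against 49.8 in starved and 64.5 in fed control muscle. The second read 31.4 in starved and 23.6 in fed knockout muscle against 39.4 in starved and 6.5 in fed control muscle, and passed the filter through its starved signals. Neither shift was shared by the 4 bright probe sets of the gene, 3 of which were designed on 1 source sequence.

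Mef2d, which is also active in most tissues, did not reach the threshold on its representative. The signals were 1040.4 in starved and 854 in fed knockout muscle, and 915 in starved and 930.5 in fed control muscle. The log2 response was 0.28 in knockout and -0.02 in control muscle, a difference of 0.31 between the genotypes. The 3 Mef2d probe sets had a larger response in knockout than in control muscle in 3 of 3 cases, with differences between 0.31 and 0.96, the largest on the dimmest probe set. That dimmest probe set read 77.1 in starved and 61 in fed knockout muscle against 61.1 in starved and 94 in fed control muscle. It passed the threshold downward on starvation in control muscle (0.65) and for knockout over control in fed muscle (0.649), which the representative did not.

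**Figure D2:**
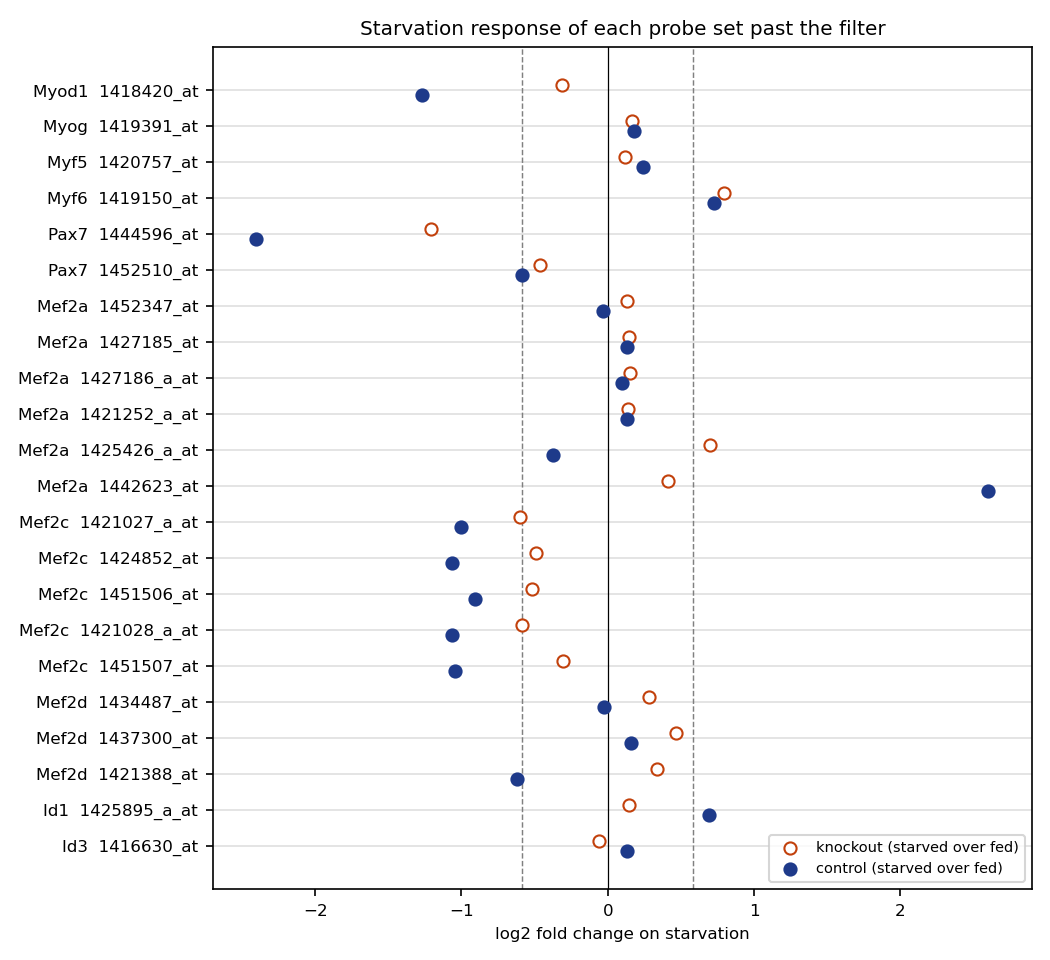
Log2 ratio of starved over fed signal for the 22 probe sets past the filter, with knockout muscle as open orange circles and control muscle as filled blue circles; dashed lines mark 1.5-fold. The 5 Mef2c probe sets lie close together at about -1 in control muscle and nearer to 0 in knockout muscle, whereas the 2 dim Mef2a probe sets leave the 4 bright ones.

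Id1, which keeps E proteins from the myogenic factors, read 492.6 in starved and 445.6 in fed knockout muscle, a ratio of 1.11. In control muscle it rose on starvation, at 705.3 starved and 437.2 fed, a ratio of 1.61. The starved control array stood above the other 3, where for Myod1 it stood below them. The log2 response was 0.55 smaller in knockout than in control muscle, where the scatter for bright genes was 0.20, and 11.5% of all genes had a lower value of this difference. Id3 read 511.9 in starved and 533.6 in fed knockout muscle, and 685.7 in starved and 627.1 in fed control muscle. The knockout arrays were the lower pair for Id3, at ratios of 0.747 in starved and 0.851 in fed muscle that stayed inside the threshold.

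In starved muscle, 3 of the 10 genes were higher in knockout than in control past the threshold and 0 were lower, where 6.39% of all genes were called up and 14.6% were called down. The 3 were Pax7, at a ratio of 2.13, Myod1 at 2.09 and Mef2c at 1.52, and each of them is a gene that fell on starvation in control muscle. The starved control array enters both comparisons, so this overlap is no separate finding. For Mef2c, 4 of 5 probe sets reached 1.5-fold, with ratios from 1.43 to 1.76. In the brightest tier of genes, where Mef2c lies, 2.98% were called up in starved knockout over starved control muscle, in the middle tier, where Myod1 lies, 3.41% were, and in the dimmest tier, where Pax7 lies, 12.8% were. The Pax7 signals compared, 19 in knockout and 8.9 in control muscle, were both below the medians of their arrays, its second probe set had a ratio of 1.44, and the call was lost with an offset of 16 signal units. Id1 was the lowest of the 10 genes at a ratio of 0.698, which did not reach the threshold, and 18.2% of all genes were lower still.

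In fed muscle, 0 of the 10 genes were past the threshold in either direction, where 3.38% of all genes were called up and 11.3% were called down. The ratios of the representatives ran from 0.740 for Myf6 to 1.15 for Mef2c. The median log2 ratio of knockout over control was -0.06 in starved and -0.13 in fed muscle for the 10 genes, and -0.16 in starved and -0.20 in fed muscle for all genes. After each array was scaled to the same median signal, the all-gene medians were 0.02 in starved and -0.05 in fed muscle, so small negative ratios between genotypes are not read here as lower expression. Under that scaling the calls over all genes were 10.1% up and 8.32% down in starved muscle and 4.78% up and 7.19% down in fed muscle, while 3 of the 10 genes were still up in starved muscle. The sign flips under that scaling or quantile normalization for Mef2a, Mef2d, Myog and Pax7 in fed muscle and for Myog in starved muscle.

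**Figure D3:**
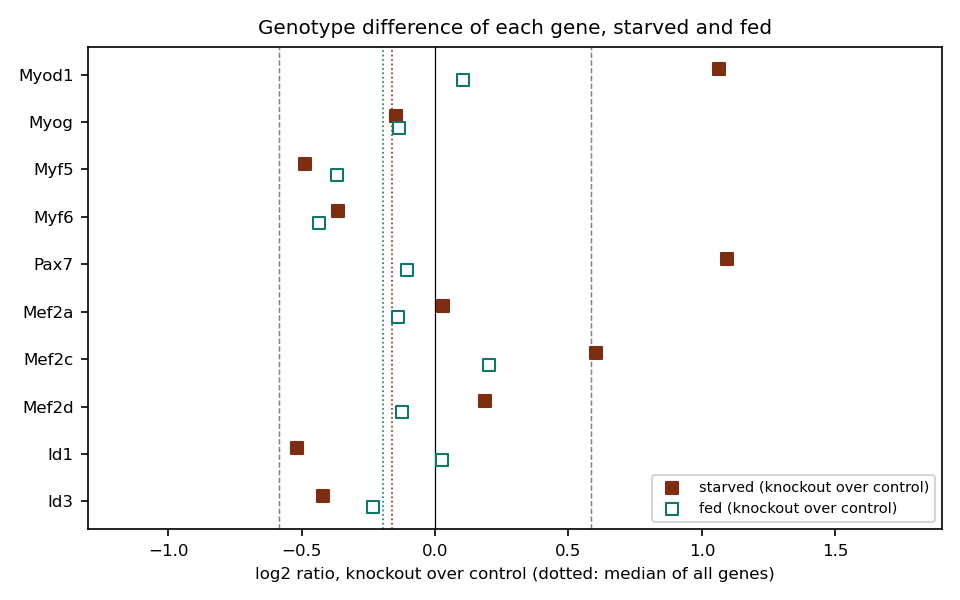
Log2 ratio of knockout over control signal for the 10 genes in starved muscle (filled brown squares) and fed muscle (open green squares); dashed lines mark 1.5-fold and dotted lines the median of all 12565 genes in each comparison. Myod1, Pax7 and Mef2c lie to the right of the upper threshold in starved muscle, and no gene passes a threshold in fed muscle.

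The pairs of responses showed where the genotypes parted. Myf6, Myog and Myf5 lay close to the line of equal response, with differences of 0.07, -0.01 and -0.12 on the log2 scale. Myod1, Mef2c and Pax7 lay above the line, with a smaller fall in knockout muscle, and Id1 lay below it, with a smaller response in knockout muscle. The median difference of the 10 genes between the genotypes, knockout response minus control response, was 0.12, against 0.04 over all genes.

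**Figure D4:**
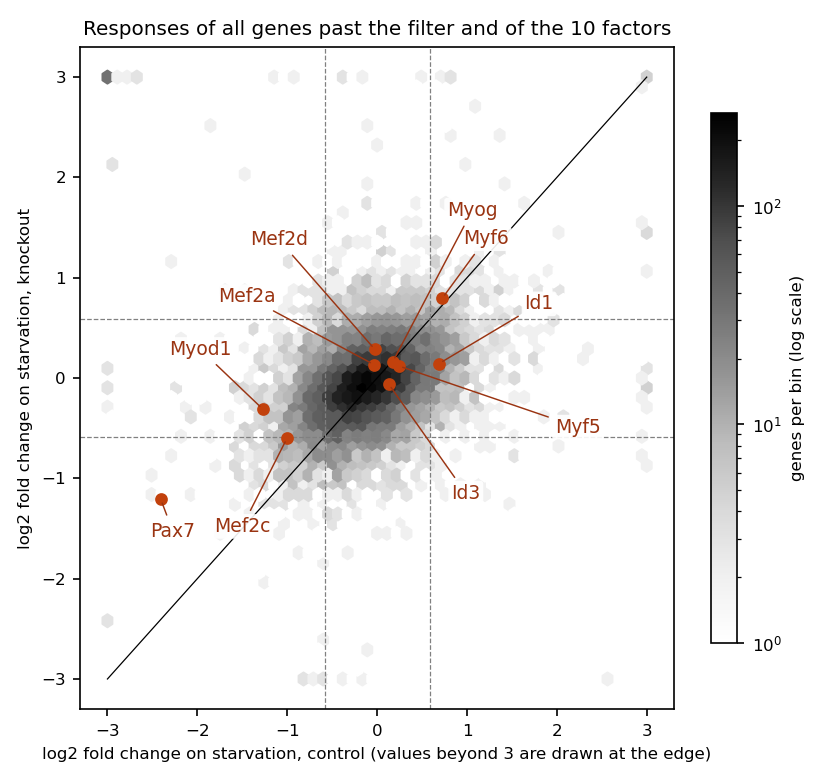
Log2 fold change on starvation in knockout muscle (vertical axis) and in control muscle (horizontal axis) for 12565 genes as grey bins, with the 10 factors in orange; the diagonal marks equal responses and values beyond 3 are drawn at the edge. Myod1, Mef2c and Pax7 lie above the diagonal on the left and Id1 below it on the right.

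Genes whose signals followed the 3 most variable members over the 4 arrays were found by the distance between log2 signals centred on their mean, over 7415 bright genes for Pax7 and 7414 for the other 2. The closest to Mef2c were Slc26a6 (0.08), Ift122 (0.09), Sdccag8, Klhl29 and Reep1 (each 0.10). The closest to Myod1 were Gamt, at 0.08, followed by Mettl11b, Ppp1r14c, Homer2 and Synpo2l, at distances from 0.14 to 0.18. Gamt, which makes creatine, read 163.7 in starved and 207 in fed knockout muscle against 75 in starved and 193.2 in fed control muscle, the same low starved control array as Myod1. Synpo2l, an actin-associated protein of the Z-disc, read 1892.6 in starved and 2060.4 in fed knockout muscle against 763.9 in starved and 1951.4 in fed control muscle. The closest to Pax7 were the potassium channel genes Kcng4, at 0.14, and Kcnc1, at 0.26, with Lrrc38 at 0.26, Plpp7 at 0.30 and Aurka at 0.38. Kcng4 read 67 in starved and 162.3 in fed knockout muscle against 36 in starved and 174.1 in fed control muscle. Likeness over 4 arrays is a description only.

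Other genes of the same families and pathways were read from 7 lists. Of the relatives Mef2b, Id2, Id4 and Pax3, all but Pax3 passed the filter. Id4 fell in knockout muscle, at 58.9 starved and 122.1 fed, and not in control muscle, at 109.5 starved and 115.8 fed. Id2 read 143.2 starved and 184.6 fed in knockout muscle, and fell in control muscle, at 156.8 starved and 266.5 fed. The Id genes thus had no common response, with Id1 the only one of the 4 to rise in control muscle. With 3 genes, the 1 fall in each genotype is 33.3% of the list, against 9.45% of all genes in knockout and 14.2% in control muscle. Mef2b stayed within the threshold in each comparison, at signals between 21.1 and 26.

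The E proteins and other bHLH partners or inhibitors had 15 of 17 genes past the filter. On starvation 0 rose and 3 fell in knockout muscle, and 0 rose and 6 fell in control muscle. The falls were 20.0% of the list in knockout and 40.0% in control muscle, against the 9.45% and 14.2% of all genes given above. The list had a median log2 fold change of -0.23 in knockout and -0.22 in control muscle. Hes1, a repressor induced by Notch, fell in both genotypes, to 124.6 in starved against 273.7 in fed knockout muscle and to 107.4 in starved against 196.9 in fed control muscle. Snai2, a zinc finger repressor that binds E-boxes, also fell in both, at ratios of 0.538 in knockout and 0.489 in control muscle. Bhlhe41, a clock-linked repressor that inhibits Myod1 protein, was dim and fell in knockout muscle at a ratio of 0.523, with 1.04 in control muscle, and its genotype ratio in starved muscle turns round when all its probe sets are averaged. The E protein genes Tcf3, Tcf4 and Tcf12 were not among the genes called on starvation.

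Among the class IIa histone deacetylases and other regulators of MEF2 proteins, 19 of 19 genes passed the filter. In knockout muscle 0 rose and 2 fell (10.5% of the list, against 9.45% of all genes). In control muscle 1 rose and 4 fell (21.1%, against 14.2% of all genes), and the median log2 fold change was -0.22 in knockout and -0.20 in control muscle. Sik1, a kinase that phosphorylates class IIa histone deacetylases, had the largest response of the list. It read 100.2 in starved and 81.8 in fed knockout muscle, and 342.6 in starved and 83.6 in fed control muscle, ratios of 1.22 in knockout and 4.10 in control muscle. Camk2a, a calcium-dependent kinase of the same group, fell at ratios of 0.667 in knockout and 0.472 in control muscle. Mapk7, the kinase ERK5 that activates MEF2 proteins, was dim and fell at 0.498 in knockout and 0.349 in control muscle. It passed the filter through its fed signals alone, so a fall was favoured by the filter. Without Mapk7 the genes that fell were Camk2a in knockout muscle and Dach2, Camk2a and Camk2g in control muscle. The deacetylase genes Hdac4, Hdac5, Hdac7 and Hdac9 were not called on starvation in either genotype.

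The partners upstream of or beside the myogenic factors had 16 genes past the filter. In knockout muscle 2 rose (12.5% of the list, against 7.39% of all genes) and 1 fell, and in control muscle 1 rose and 4 fell (25.0%, against 14.2% of all genes). Tead1, a factor that binds the MCAT element of muscle genes, fell alike in both genotypes, at 1204.9 in starved and 2020.6 in fed knockout muscle and 1172.4 in starved and 1993 in fed control muscle. Pitx3, a homeodomain factor of muscle, rose in knockout muscle at a ratio of 2.08, with 1.30 in control muscle. Six5, a homeodomain factor, was dim and rose at ratios of 1.63 in knockout and 1.62 in control muscle. It passed the filter through its starved control signal alone, so its rise in control muscle, the only one of the list there, was favoured by the filter. Its knockout signals, 21.8 starved and 13.4 fed, were both below the medians of their arrays.

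Of 22 listed targets of the myogenic factors, 17 passed the filter. In knockout muscle 2 rose (11.8% of the list, against 7.39% of all genes) and 0 fell, and in control muscle 5 rose (29.4%, against 9.23% of all genes) and 1 fell. The 5 were Myh8, Cdkn1a, Gadd45a, Fbxo32 and Trim63. By quantitative RT-PCR of tibialis anterior muscle, the paper reports that the rise of Fbxo32 (atrogin1) and Trim63 (MuRF1) in fasting was fully blocked without FoxO. It also gives Gadd45a as inhibited in knockout muscle. Its FoxO-dependent genes were first found on these same gastrocnemius arrays, so the arrays are no separate evidence. On the arrays, Fbxo32 had ratios of 2.27 in knockout and 4.56 in control muscle, so it still rose past the threshold in knockout muscle. Trim63 had ratios of 1.36 and 2.43 in that order. Cdkn1a, the cell cycle inhibitor p21, rose in both genotypes, to 2347.1 in starved against 376.8 in fed knockout muscle and to 1218.2 in starved against 264.4 in fed control muscle. Gadd45a, a growth arrest gene, read 205.9 in starved and 176.8 in fed knockout muscle, against 1494.5 in starved and 261.9 in fed control muscle. Mybph, a myosin-binding protein of the thick filament, read 2074.3 in starved and 2675 in fed knockout muscle, against 454.1 in starved and 1447 in fed control muscle. It was the only gene of the list to fall in control muscle, and its ratio there was 0.314. A link to the fall of Myod1 was not tested. The list had a median log2 fold change of 0.10 in knockout and 0.03 in control muscle.

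Listed targets of MEF2 had 16 of 17 genes past the filter. On starvation 1 rose and 0 fell in knockout muscle (6.25% up, against 7.39% of all genes), and 2 rose and 1 fell in control muscle (12.5% up and 6.25% down, against 9.23% and 14.2% of all genes). Hrc, a calcium-binding protein of the sarcoplasmic reticulum, read 3734.1 starved and 4451.5 fed in knockout muscle, and fell in control muscle, at 2830.5 starved and 4407.8 fed. Xirp1, an actin-binding protein of the myotendinous junction and intercalated disc, rose at ratios of 1.70 in knockout and 1.54 in control muscle. Jun, an immediate early gene, had a ratio of 1.25 in knockout muscle and rose in control muscle at 1.88. The median log2 fold change of this list was close to 0 in knockout muscle and was -0.07 in control muscle, where Mef2c itself had a ratio of 0.499.

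BMP and Smad1/5 signalling, which lies upstream of the Id genes, had 18 of 23 genes past the filter. In knockout muscle 1 rose and 1 fell (5.56% each way, against 7.39% up and 9.45% down over all genes), and in control muscle 2 rose and 1 fell (11.1% up and 5.56% down, against 9.23% and 14.2%), with a median log2 fold change close to 0 in knockout muscle and of 0.08 in control muscle. The ligand gene Bmp2 had ratios of 0.690 in knockout and 1.13 in control muscle, and in starved muscle it was lower in knockout than in control at 0.556. The ligand gene Bmp7 was dim, at ratios of 0.655 in knockout and 0.473 in control muscle. Chrd, an antagonist of BMP ligands, had a ratio of 1.13 in knockout muscle and rose in control muscle at 1.88.

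**Figure D5:**
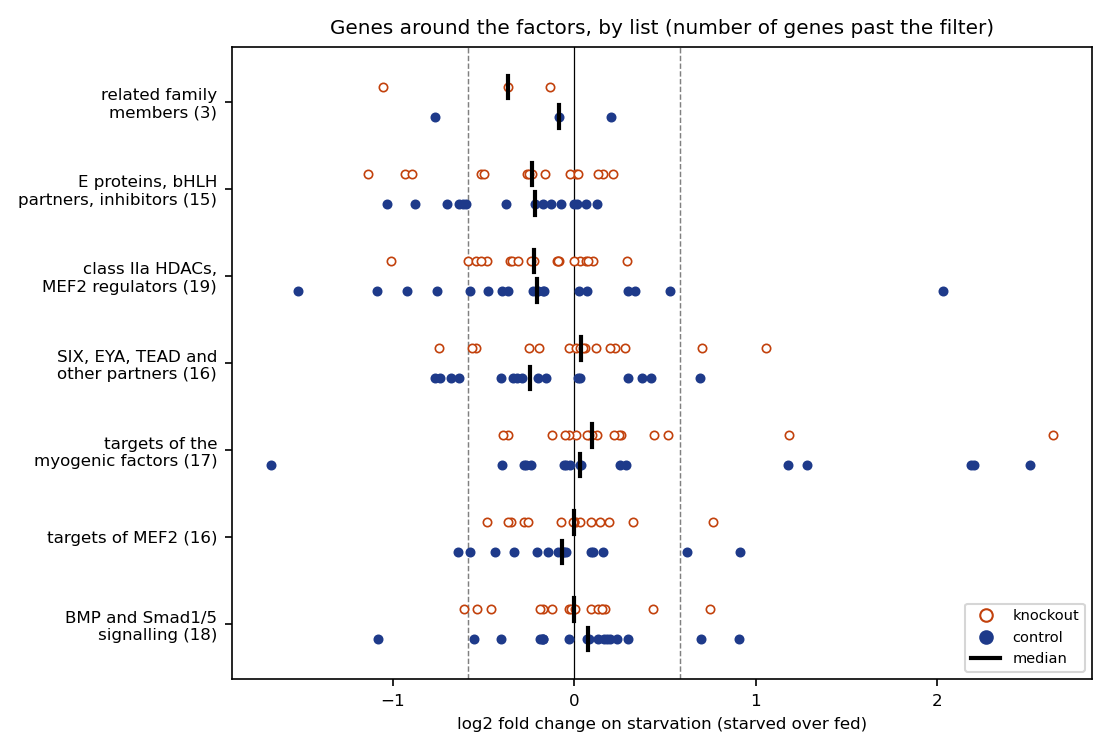
Log2 fold change on starvation of each gene past the filter in 7 lists of related genes, with knockout muscle as open orange circles above control muscle as filled blue circles; bars are medians and dashed lines 1.5-fold. The medians lie between -0.37 and 0.10 in knockout and between -0.24 and 0.08 in control muscle, and single genes such as Cdkn1a and Gadd45a lie far outside.

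Between the genotypes, 8 of the 104 list entries past the filter were higher in starved knockout than in starved control muscle, 7.69% against 6.39% of all genes, and 13 were lower, 12.5% against 14.6%. In starved knockout over starved control muscle, 0 relatives, 2 bHLH partners (Msc and Hes6), 2 regulators of MEF2 (Dach2 and Mapk7), 2 upstream partners (Eya2 and Pitx3), 2 targets of the myogenic factors (Mybph and Cdkn1a), 0 targets of MEF2 and 0 genes of BMP signalling were higher. In the same comparison 1, 2, 2, 1, 4, 1 and 2 genes of these lists, in that order, were lower. They were Id4, Mdfic, Bhlhe41, Cabin1, Sik1, Six5, the myogenic factor targets Rb1, Gadd45a, Fbxo32 and Trim63, and then Jun, Bmp2 and Smad5. The lowest ratios were 0.138 for Gadd45a, 0.292 for Sik1, 0.33 for Fbxo32 and 0.439 for Trim63. The Mapk7 signals compared, 20.5 in knockout and 12.8 in control muscle, were both below the medians of their arrays. Six5 passed the filter through its starved control signal alone, so its call as lower in starved knockout muscle was favoured by the filter. Its fed signals, 13.4 in knockout and 25.6 in control muscle, were both below the medians of their arrays. In fed muscle 4 genes of all 7 lists were higher, Camk2b, Myh8, Mybph and Chrd, and 5 were lower, Rcan1, Six5, Vgll2, Fbxo32 and Bambi, which is 3.85% up and 4.81% down against 3.38% and 11.3% of all genes. Mybph, at ratios of 4.57 in starved and 1.85 in fed muscle, was higher in knockout muscle under both conditions.

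Other cell types of the muscle were read by their markers, since several of the 10 genes are also made outside fibres. The 12 satellite cell markers, Pax7 and Myf5 among them, summed to 2554 in starved and 3002.6 in fed knockout muscle and to 2782.2 in starved and 3339.8 in fed control muscle, and their median log2 fold change was 0.06 in knockout and -0.42 in control muscle. Cd34, the brightest, read 792.7 in starved and 1318.4 in fed knockout muscle and 1027.8 in starved and 1374.9 in fed control muscle. It weighs most in these satellite cell sums. The 9 endothelial markers, of interest for Id1 and Id3, summed to 3445.4 in starved and 3372.2 in fed knockout muscle and to 4093 in starved and 4288.3 in fed control muscle. The 7 hair shaft and epidermis genes, which come from outside the muscle, summed to 1108.7 in starved and 939.1 in fed knockout muscle and to 645.9 in starved and 769 in fed control muscle. These sums hide opposite moves. Krt25, a hair follicle keratin, read 318.5 in starved and 18.2 in fed knockout muscle against 6.9 in starved and 252.9 in fed control muscle, and Lor, an epidermal envelope protein, read 131.5 in starved and 132.8 in fed knockout muscle against 177.5 in starved and 12.5 in fed control muscle. The 5 fibroblast markers had a median log2 fold change on starvation of -0.96 in knockout and -0.90 in control muscle, where Col1a1, Col3a1 and Lum fell at ratios between 0.413 and 0.536 and Dcn had ratios of 0.998 in knockout and 0.916 in control muscle. The lowest and highest sums over the 4 arrays were 16707.5 and 23771.6 for 5 fibroblast markers, 2077.5 and 3194.1 for 6 macrophage markers, 9778.9 and 12717 for 5 smooth muscle markers, 4860.3 and 5873.1 for 3 Schwann cell markers and 2764.5 and 4753.2 for 2 adipocyte markers. Each of these sums was lower on the starved than on the fed knockout array, and in control muscle the Schwann cell and adipocyte sums were higher on the starved array. Single markers could move the other way. On starvation in knockout muscle the adipocyte genes Adipoq and Lep had ratios of 0.741 and 1.99, and the macrophage gene Cd68 one of 1.39. The 1 erythroid marker past the filter read between 50.7 and 124.9, and no marker was at 0. The part of these cells in the values of the 10 genes was not tested.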

How the data were processed

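RNA of 6 gastrocnemius muscles from 3 mice was pooled for each of 4 conditions and hybridized to 1 Affymetrix Mouse Genome array. The authors summarized the probes into MAS 5.0 intensity values on a linear scale, and the values were used as deposited. The submitters' processing notes name MAS5 and Affymetrix Expression Console. No source used here gives the scaling target or detection calls. The software was Python 3.11.15 with pandas 2.3.3, numpy 2.4.6 and, for plots, matplotlib 3.10.9. A signal of 0 was set to 0.1 before a logarithm.

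Of 45037 probe sets other than Affymetrix controls, 34945 have 1 gene in the platform annotation, 932 several and 9160 are not listed there; 34741 were named through the gene identifier with the RefSeq table of GRCm38.p6, and those with several genes were left unnamed. Probe sets had to reach an array's 50th percentile on 1 or more of the 4 arrays. For genes with several, the one brightest on average was used. Calls were made at 1.5-fold over all 12565 genes kept. This step was also run on simulated data whose scatter was taken from these arrays. Each condition has 1 array, which limits the precision and allows no test.

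The members and lists were chosen with earlier results of these data known. The genes named in the text are every member, the 3 FoxO genes, in each of 7 lists up to 3 genes with the largest absolute log2 fold change in any of the 4 comparisons, and, for the 3 members with the widest range over the arrays, the 5 genes with the nearest pattern among those reaching the 75th percentile of an array. Other genes called in a list, the E protein and deacetylase genes and single markers are named outside this rule. The alternatives were scaling to the same median, quantile normalization, no filter, a filter on the mean signal, a filter at the 75th percentile, an offset of 16 signal units, the mean log2 fold change over a gene's probe sets and a threshold of 2-fold.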

Additional observations from a re-analysis of the deposited data

Results flagged for a closer look

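The dimmer Myod1 probe set, which stayed below the filter and enters no comparison above, moved in opposite directions in the genotypes past 1.5-fold. Its signal was 15.1 in starved and 5.5 in fed knockout muscle, a ratio of 2.75, against 1.9 in starved and 9.4 in fed control muscle, a ratio of 0.202. The log2 response of knockout muscle was higher by 3.76 than that of control muscle. This difference was not tested, since each condition has 1 array, and all 4 signals lie below the array medians of 22.9 to 26.3. The bright Myod1 probe set gave a difference of 0.96 in the same direction, with a ratio of 0.807 in knockout muscle.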

How the results depend on the processing

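Of 64 counts of members past the threshold under 8 alternatives, 57 stayed within 1.5 times the value given above and 7 moved. The number of members that fell on starvation in knockout muscle was 1 in place of 2 with arrays scaled to the same median, with quantile normalization, with the filter at the 75th percentile, with the mean over probe sets and at 2-fold. The number higher in starved knockout than in starved control muscle was 2 in place of 3 with the filter at the 75th percentile, with the offset and at 2-fold. At 2-fold, the number that rose was 0 in place of 1 in knockout and 0 in place of 2 in control muscle. The calls that were lost include the fall of Mef2c in knockout muscle, which was -0.54 on the log2 scale with arrays scaled to the same median, -0.58 with quantile normalization and -0.50 as the mean over its probe sets, so this call lies at the threshold. With an offset of 16 signal units, the difference of Pax7 between the genotypes in starved muscle was 0.49 and that of its responses 0.57. Pax7 and Myf5 left the table with the filter at the 75th percentile. No called fold change of a member turned round, and 17 of 312 member fold changes changed sign below the threshold. The lists were less stable, since 109 of 448 list counts moved by more than 1.5 times and 31 of 224 list medians changed sign. Bhlhe41 turned round in starved knockout over control muscle, from -0.84 to 1.04 on the log2 scale with the mean over probe sets. No paired analysis was possible because each condition has 1 array, and for the same reason no array could be left out; signals near the array medians limit what can be read of Pax7 and other dim genes.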
